A study of Rattus norvegicus with 69 samples.

Results

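Respiratory chain genes were followed through rat spermatogenesis on Affymetrix arrays: the genes of complexes I to V of the inner mitochondrial membrane, with the complex I assembly factors of the same naming series. Members were all probe sets that the platform table paired with exactly 1 gene symbol of the families Nduf, Sdha to Sdhd, Uqcr, Cox4 to Cox8, Cyc or Atp5, and each gene was represented by its probe set with the highest mean signal. This gave 87 genes from 97 probe sets, of 14217 genes with such a symbol and 31042 probe sets in all. They were 29 accessory and 6 core subunits and 6 assembly factors of complex I, 4 subunits of complex II, 8 genes of complex III, 17 of complex IV, 16 of complex V, and the pseudogene Cox6c-ps1. This grouping followed gene symbols, except that Ndufa4 was counted in complex IV. Its paralog Ndufa4l2 was counted among the complex I accessory subunits by its symbol alone. A further 12 matching probe sets named several genes at once and were left out. Genes that only such probe sets carry, Cycs of somatic cytochrome c among them, were therefore not analysed here.

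The 69 samples, with 1 array each, came from Sprague Dawley rats. Sertoli cells (4 samples, about 85% pure), round spermatids (4 samples) and pachytene spermatocytes (4 samples) were isolated from rats aged 55 to 60 days. Spermatogonia plus early spermatocytes (3 samples) came from rats aged 18 to 20 days, so that age and cell type cannot be told apart in any comparison with them. The germ cells had been separated by elutriation to a purity of 85% to 95%. Whole testis gave 5 samples, for which the labels give no age. Seminiferous tubules of rats aged 55 to 60 days gave 49 samples, cut out under transillumination in 10 stage groups, which are, in the order of the cycle, I, II-III and IV-V, then VI, VIIa.b and VIIc.d, and last VIII, IX-XI, XII and XIII-XIV. Each tubule sample pooled 25 segments from each of 2 rats, and each group had 5 samples except IV-V with 4. The titles call 1 group IX-XI and its source names IX-XII, so its samples may include stage XII tubules. No treatment or genetic change separates any of these groups. The labels do not say whether the replicates of the isolated cells and of whole testis came from separate preparations, so p-values there measure only the spread between these samples.

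Electrons from NADH enter the chain at complex I and electrons from succinate at complex II. They pass through complex III and cytochrome c to complex IV, which reduces oxygen, and the proton gradient built on the way drives ATP synthesis by complex V. Several complex IV subunits exist as isoforms encoded by separate genes, and COX6B2 and COX7B2 are known as isoforms of the testis beside the widely expressed COX6B1 and COX7B. The X chromosome is transcriptionally silenced during pachytene of male meiosis, which bears on members encoded there, and 3 members are X-linked: Cox7b, Ndufa1 and Ndufb11.

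Levels are array signals, scaled per array, and differences are on the scale of log2(signal + 5.12). A gene was called higher or lower in a comparison when limma's test gave a Benjamini-Hochberg adjusted p under 0.05 over all probe sets tested and the change was at least 2-fold. Of the 87 members, 76 exceeded 43.7, the median of the whole table, in every sample, 10 in some samples, and 1, Cox8b, in none. Cox8b was not tested in any comparison, and Cox6a2 and Cox7a1 were not tested in isolated cells, since too few samples passed the filter on low signal. Defining markers were set against the labels of the isolated cells. Those of spermatogonia went against them, and those of spermatocytes did not separate the 2 later germ cell groups. The 7 spermatocyte markers summed to 11031 to 11896.5 in round spermatids and 10039 to 15198 in pachytene spermatocytes. They summed to 5015 to 5631 in spermatogonia plus early spermatocytes and 3522 to 4657 in Sertoli cells. The 6 spermatogonial markers summed to 1446 to 1819 in Sertoli cells and 822 to 1197 in spermatogonia plus early spermatocytes, against 304 to 565 in round spermatids and 206 to 245 in pachytene spermatocytes. The 8 elongating spermatid markers summed to 27659 to 34794 in round spermatids, 10282 to 15083 in pachytene spermatocytes and 1673 to 7264 in Sertoli cells, against 85.5 to 117 in spermatogonia plus early spermatocytes. The summed signal of 11 Sertoli cell markers was 15339 to 22525 in Sertoli cells, 501 to 656 in round spermatids, 645 to 926 in pachytene cells and 3483 to 4977 in spermatogonia plus early spermatocytes. The 7 Leydig cell markers summed to 5730 to 7586 in Sertoli cells and 6508 to 9982 in spermatogonia plus early spermatocytes, against 257 to 338 in round spermatids and 227 to 436 in pachytene spermatocytes. In bulk samples, fewer cells of a type and less RNA per cell cannot be told apart.

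The respiratory chain did not shift as a block when Sertoli cells were set against the mean of the 3 germ cell groups. Single subunits of complexes I, III and IV were 3- to 6-fold higher in Sertoli cells, and 4 of the 6 complex I assembly factors among the members were lower. Limma's test called 10 of 84 members higher in Sertoli cells and 7 lower. Over all probe sets tested the shares were 24.1% higher and 29.7% lower, so both member shares, 11.9% and 8.33%, were below the background. The median log2 difference was 0.18 over the members and -0.15 over all probe sets.

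Ndufa4, a subunit of complex IV once assigned to complex I, had signals of 1098, 1288, 1435 and 1220 in Sertoli cells. It had 74.3, 64.6, 64.8 and 55.4 in round spermatids, 141, 142, 128 and 123 in pachytene spermatocytes, and 897, 988 and 1091 in spermatogonia plus early spermatocytes. All Sertoli cell samples were above all germ cell samples, but the gap to spermatogonia was narrow and the gap to the later germ cells wide. The log2 difference was 2.57 with a standard error of 0.09 (limma adjusted p = 8.35e-14). Ndufa1, an X-linked accessory subunit of complex I, gave the same order, with 1711 to 1963 in Sertoli cells, 128 to 161 in round spermatids, 170 to 194 in pachytene cells and 1182 to 1496 in the early germ cells (log2 difference 2.48, standard error 0.08, limma adjusted p = 3.90e-14). Cyc1, the cytochrome c1 subunit of complex III, averaged 1044 ± 86.2 in Sertoli cells and 86.8 ± 23.5 in round spermatids, with 254 ± 21.0 in pachytene cells and 608 ± 205 in spermatogonia plus early spermatocytes (SD, n = 4, 4, 4 and 3; log2 difference 2.13, limma adjusted p = 8.66e-10). Cox7b and Cox8a, structural subunits of complex IV, were 6.06-fold and 5.66-fold higher in Sertoli cells than in the mean of the germ cells. Their germ cell samples nevertheless overlapped the Sertoli cells: Cox7b was higher in every sample of spermatogonia plus early spermatocytes than in any Sertoli cell sample, and for Cox8a the ranges of these groups met. The remaining members that were higher were Cox6b1, Ndufb11, Atp5mc3 (a copy of the membrane ring subunit c of complex V), Sdhb (the iron-sulphur subunit of complex II) and Ndufaf4 (a complex I assembly factor), by 1.08 to 1.69 on the log2 scale.

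Of the 6 complex I assembly factors, 4 were lower in Sertoli cells (Ndufaf1, Ndufaf3, Ndufaf5 and Ndufaf7), and Ndufaf4 was called higher, a call that ended with quantile normalization (0.90) and with centring (0.94). A second probe set of Ndufaf7 had a log2 difference of -0.87, short of 2-fold, beside -1.06 on the one used. Ndufaf1, which joins the assembly of the membrane arm, had 13.6, 16.4, 30.1 and 22.6 in Sertoli cells, against 93.1 to 114 in round spermatids, 72.9 to 91.0 in pachytene cells and 40.4 to 56.3 in spermatogonia plus early spermatocytes. Every Sertoli cell sample was below every germ cell sample, at signals below the median of the table (log2 difference -1.62, standard error 0.16, limma adjusted p = 5.07e-08). Cox6b2 (log2 difference -1.97), Cox6c-ps1 (-1.70) and the complex I accessory subunit Ndufa12 (-1.43) completed the lower members. The Sertoli cell samples overlapped germ cell samples for Cox6b2 and Ndufa12. Markers of 3 other somatic cell types were also higher in the Sertoli cell samples: 6 of 7 Leydig cell, 5 of 5 peritubular myoid cell and 5 of 5 endothelial cell markers. The myoid markers summed to 2185 to 5288 in Sertoli cells, against 228 to 655 in the germ cells, and the endothelial markers to 578 to 1650 in Sertoli cells, against 93.6 to 237 in the germ cells. Their part in these differences was not tested.

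Pachytene spermatocytes differed from spermatogonia plus early spermatocytes in members of all 5 complexes. The widely expressed complex IV subunits Cox7b, Cox8a, Ndufa4 and Cox6b1 were 39.0-, 10.3-, 7.18- and 6.22-fold lower in pachytene spermatocytes. The testis isoforms Cox6b2 and Cox7b2 were 7.07- and 3.03-fold higher. Of 84 members, 10 were higher and 12 lower, beside 18.5% higher and 28.6% lower over all probe sets, and the median log2 difference was 0.21 against -0.15. By complex, 2 of the 14 complex IV members tested were higher and 5 lower, 3 of the 29 complex I accessory subunits were higher and 3 lower, and 1 of the 16 complex V members went each way. The count depended on the scaling: with each array centred on its median, 28 members were higher and 8 lower, and with quantile normalization 12 were higher and 16 lower. The shares over all probe sets were then 26.6% higher and 21.5% lower with centring, and 23.1% and 25.3% with quantile normalization. Centring moved the median of all probe sets to 0.27 and quantile normalization moved it to 0.11. Relative to that median, the members' median was 0.35 higher as scaled by the authors and with centring, but 0.21 lower with quantile normalization, so no direction is given for the members as a whole. No member called on the authors' scaling changed its sign. Centring ended the calls of Cyc1, Atp5mk, Ndufc2 and Sdhd, and quantile normalization those of Atp5f1c and Ndufv2.

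Cox7b, an X-linked structural subunit of complex IV, had signals of 10.8, 24.9, 19.0 and 15.8 in pachytene spermatocytes, against 721, 944 and 932 in spermatogonia plus early spermatocytes. The pachytene signals lay below the median of the table, so the size of the fold is uncertain at its low end (log2 difference -5.28, standard error 0.22, limma adjusted p = 2.91e-13). Cox8a, an autosomal small subunit of complex IV, had 116, 122, 146 and 109 in pachytene spermatocytes and 1233, 1431 and 1282 in spermatogonia plus early spermatocytes. The pachytene samples stood well apart from the early cells and overlapped the round spermatids (log2 difference -3.37, standard error 0.14, limma adjusted p = 4.66e-13). The X-linked Ndufa1 and Ndufb11, both accessory subunits of complex I, were 7.01- and 4.86-fold lower. All 3 X-linked members were thus among the 6 with the strongest decrease, beside the autosomal Cox8a, Ndufa4 and Cox6b1. Among the 431 X-linked probe sets outside the members, 71.5% were lower in pachytene spermatocytes, against 28% of autosomal ones. The other lower members were Ndufaf4, Cox7a2l (a factor that joins complexes III and IV into supercomplexes), Sdhd (a membrane anchor of complex II), Atp5mk (a small subunit of complex V), Cyc1 and Ndufc2.

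The strongest increase in pachytene spermatocytes was that of Ndufaf3, a complex I assembly factor, with 2987, 1977, 2508 and 3456 in pachytene spermatocytes and 416, 288 and 304 in spermatogonia plus early spermatocytes. The groups did not overlap (log2 difference 2.99, standard error 0.16, limma adjusted p = 6.28e-12). Cox6b2 had 2632, 1840, 2211 and 3173 in pachytene spermatocytes, against 414, 324 and 286 in the early cells, again with no overlap (log2 difference 2.82, standard error 0.15, limma adjusted p = 1.02e-11). Uqcrfs1, the Rieske iron-sulphur subunit of complex III, averaged 3381 ± 706 in pachytene spermatocytes and 902 ± 139 in the early cells (SD, n = 4 and 3) and was 3.70-fold higher. Ndufa12, an accessory subunit of complex I, was 3.99-fold higher. Ndufa4l2, a paralog of Ndufa4, was 4.44-fold higher at low signals, 71.3 to 84.1 in pachytene spermatocytes and 3.8 to 47.9 in the early cells. Its log2 difference of 2.15 was 2.89 without early cells replicate 3 and 1.61 without replicate 1. Ndufs6, Ndufv2 (the core subunit of this group), Ndufaf7 and Atp5f1c (the gamma subunit of the complex V rotor) were also higher. A second probe set of Ndufaf7 had a log2 difference of 0.09 and was not called, so its increase rests on the probe set used. Likewise, the second probe set of Sdhd had -0.77, short of 2-fold, beside -1.31 on the one used. The actin 3' to 5' ratio was 3.64 and the GAPDH ratio 1.56 in early cells replicate 3, against 1.54 and 1.88 (actin) and 0.96 and 1.09 (GAPDH) in the other early cell samples, and without that sample 10 members were again higher and 12 lower. Markers of other cells moved with this comparison: 7 of 7 Leydig cell, 9 of 11 Sertoli cell, 5 of 5 macrophage and blood, and 4 of 5 spermatogonial markers were lower in pachytene spermatocytes. Their part in the differences was not tested.

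**Figure D1:**
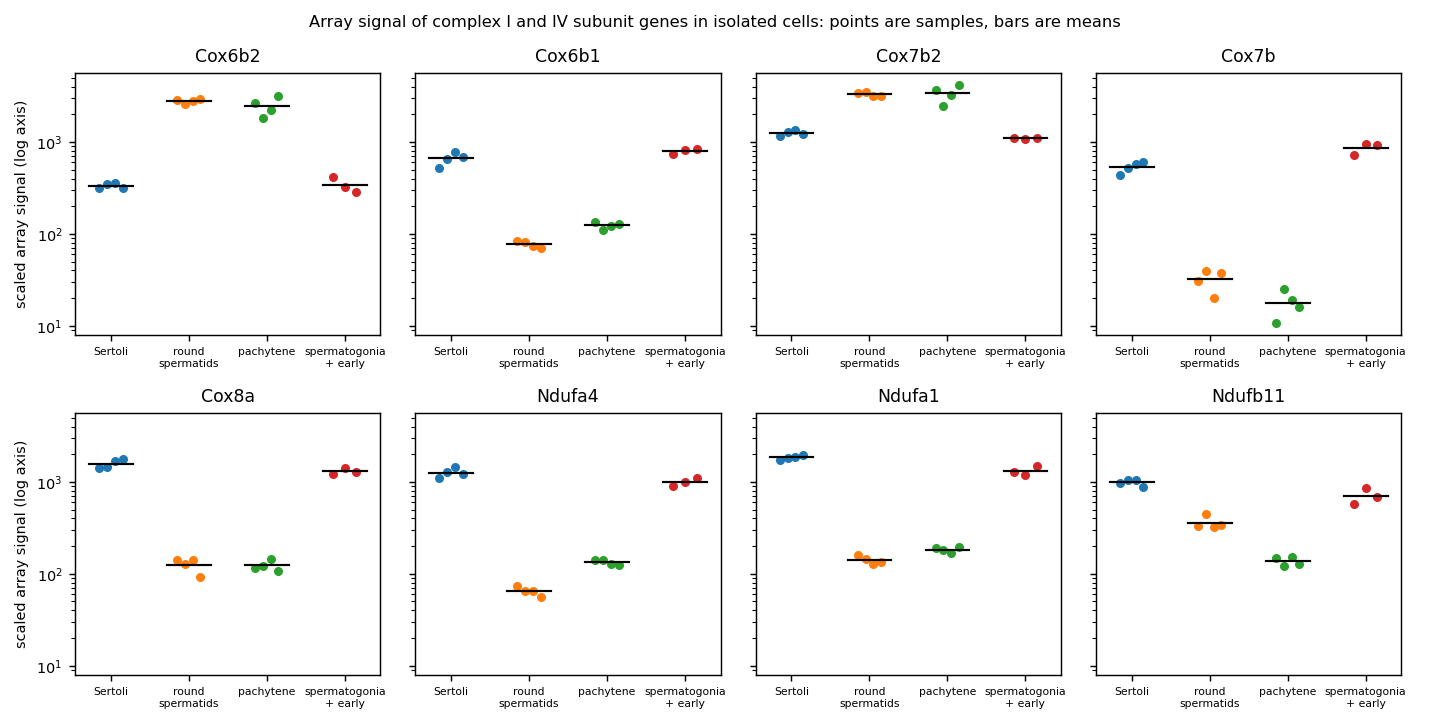
Scaled array signal (log axis) of 8 subunit genes of complexes I and IV in Sertoli cells, round spermatids, pachytene spermatocytes and spermatogonia plus early spermatocytes; points are samples and bars are group means. Cox6b2 and Cox7b2 were higher in the later germ cells than in the early germ cells, whereas Cox6b1, Cox7b, Cox8a, Ndufa4 and Ndufa1 were high in Sertoli cells and early germ cells.

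Round spermatids, the haploid cells that follow meiosis, differed from pachytene spermatocytes in 12 members. Ndufa5, an accessory subunit of complex I, was 4.6-fold higher, and Sdha, the flavoprotein of complex II, was 3.50-fold lower. In all, 3 of 84 members were higher and 9 lower, beside 8.9% higher and 13.1% lower over all probe sets, so the counts of members lie near or below the background. The median log2 difference was -0.19 over the members and -0.06 over all probe sets. Ndufa5 had signals of 793, 919, 865 and 715 in round spermatids, against 180, 184, 208 and 134 in pachytene spermatocytes. All round spermatid samples were higher than any other isolated cell sample for this gene (log2 difference 2.20, standard error 0.12, limma adjusted p = 8.35e-11). Ndufb11, which is X-linked, had 324 to 450 in round spermatids and 123 to 153 in pachytene spermatocytes (log2 difference 1.34, standard error 0.13, limma adjusted p = 1.22e-07). Of the X-linked probe sets outside the members, 22.5% were higher in round spermatids than in pachytene spermatocytes, against 9.83% of autosomal ones. The other X-linked members differed less, by 0.71 for Cox7b (limma adjusted p = 0.00745) and by -0.36 for Ndufa1, and were not called. Atp5mpl, a small subunit of complex V, was the remaining member that was higher, at 516 to 640 in round spermatids and 185 to 289 in pachytene spermatocytes.

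Sdha had 169, 154, 209 and 218 in round spermatids, against 624, 591, 618 and 846 in pachytene spermatocytes, with no overlap (log2 difference -1.81, standard error 0.13, limma adjusted p = 1.76e-09). Sdhc, a membrane anchor of complex II, was 1.88-fold lower without overlap (limma adjusted p = 2.11e-07) and missed the call only by its size, whereas Sdhb (-0.10) and Sdhd (0.34) were not called either. Ndufc1, a small membrane subunit of complex I, had 177 to 222 in round spermatids and 626 to 731 in pachytene spermatocytes (log2 difference -1.72). Atp5f1c had 818 to 889 in round spermatids and 2092 to 3096 in pachytene spermatocytes (-1.54), and Atp5mc3 had 308 to 357 in round spermatids and 970 to 1153 in pachytene spermatocytes (-1.65). Cyc1, Cox7c (a complex IV subunit), Uqcrc2 (a core protein of complex III), Ndufb3 and Ndufb8 were lower by 1.06 to 1.53 on the log2 scale. Quantile normalization ended the calls of Ndufb3 and Ndufb8, and centring ended that of Ndufb8. The GAPDH 3' to 5' control ratio, a measure of RNA integrity, was 1.75 to 2.44 in round spermatids and 1.07 to 1.51 in pachytene spermatocytes. The actin ratio went the other way, at 1.77 to 1.99 in round spermatids and 2.02 to 2.56 in pachytene spermatocytes. The part of RNA integrity in these differences was not tested.

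**Figure D2:**
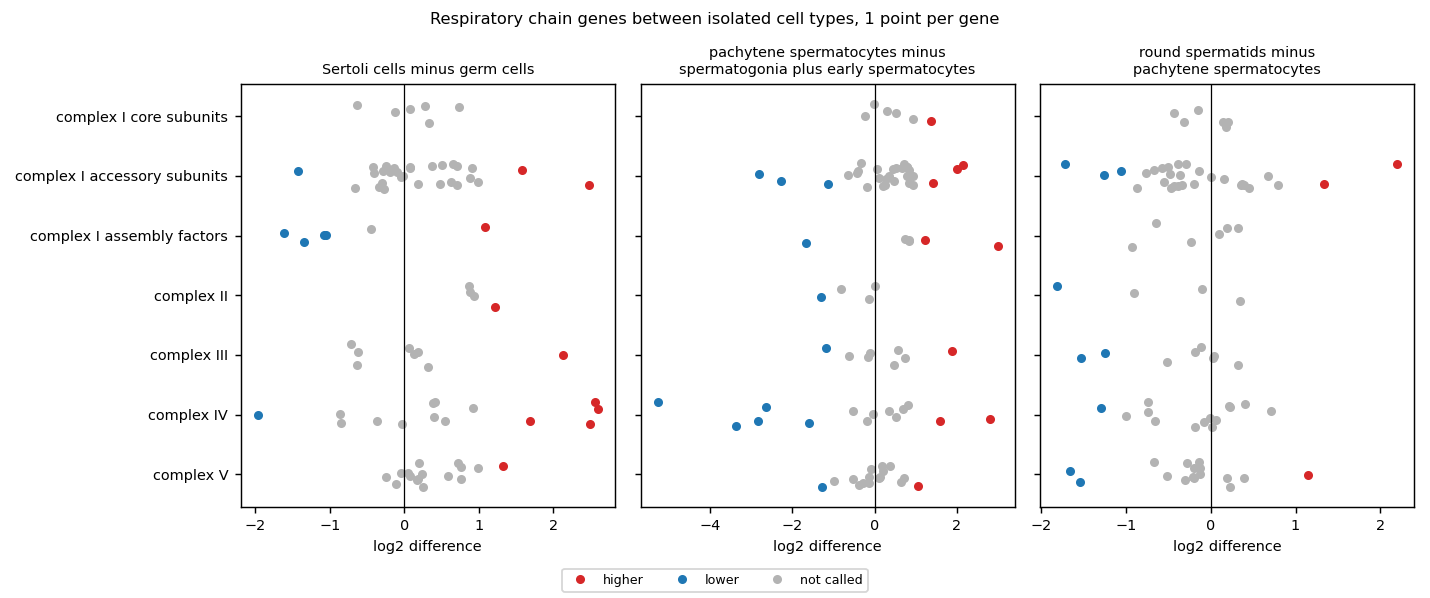
Difference on the log2 scale (x axis) of each tested respiratory chain gene, by complex (y axis), for Sertoli cells minus germ cells, pachytene spermatocytes minus spermatogonia plus early spermatocytes, and round spermatids minus pachytene spermatocytes; red genes were called higher, blue lower and grey not called. Complex IV held the strongest decrease, Cox7b at -5.28, in the middle panel, and complex I assembly factors lay mostly to the left in the panel of Sertoli cells.

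The pairs of complex IV isoforms were compared as the log2 of the testis or tissue isoform over its counterpart, which changes between groups only if the isoforms change unequally. Cox6b2 over Cox6b1 averaged 4.23 ± 0.24 in pachytene spermatocytes and -1.23 ± 0.38 in spermatogonia plus early spermatocytes, a difference of 5.46 with no overlap (SD, n = 4 and 3, exact two-sided permutation p = 0.0571, the smallest this design allows). Cox7b2 over Cox7b differed by 6.88 between the same groups, at 7.23 ± 0.66 in pachytene spermatocytes and 0.35 ± 0.22 in the early cells (exact permutation p = 0.0571). Most of that difference was the lower Cox7b signal in pachytene spermatocytes, which lay below the median of the table. Between round spermatids and pachytene spermatocytes, Cox6b2 over Cox6b1 averaged 5.09 ± 0.15 in round spermatids and 4.23 ± 0.24 in pachytene spermatocytes, without overlap (exact permutation p = 0.0286, the smallest possible), whereas Cox7b2 over Cox7b overlapped. Sertoli cells were lower than the pooled germ cell samples by 4.01 for Cox6b2 over Cox6b1 (exact permutation p = 0.0454) and by 3.86 for Cox7b2 over Cox7b (exact permutation p = 0.0513), with overlap, since the early germ cells lay near the Sertoli cells. Cox4i2 over Cox4i1 differed by at most 0.49 in size in any of the 3 comparisons, with overlap in each. Over these 9 tests the lowest Benjamini-Hochberg adjusted p was 0.103, so none passed. Cox4i2, Cox6a2, Cox7a1 and Cox8b, isoforms known from lung, heart or muscle, had low signals throughout: in isolated cells Cox4i2 stayed at 29.0 to 89.4, Cox6a2 at 1.3 to 31.7, Cox7a1 at 7.1 to 44.3 and Cox8b at 1.1 to 7.8.

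The promoters of these isoform pairs and of the genes that varied most along the tubule were read from the RefSeq annotation of the rat assembly GRCr8, as the 250 bases before each gene's start, since the Cox6b2 and Cox7b2 windows belong to members that were higher in the same cells. Of the 87 members, 78 had such a window. The letters CGCANGCG, the middle of the sequence bound by NRF1, a known regulator of respiratory chain genes, stood on either strand in 22 of 78 members (28.2%), against 7.21% of all 27457 promoters. The letters CCGGAAG, a core of ETS factor sites, stood in 21 members (26.9%), against 7.74% of all promoters, and the cAMP response element TGACGTCA stood in 2 (2.56%), against 1.70%. Each motif was searched on both strands and counted whether or not it overlapped another, and the motifs were chosen after the array values had been seen. A match is a description, not a site or a cause. The windows below are shown for the isoform pairs, in which none of the 3 motifs was found, and for Ndufa5 and Sdha, which peaked at different stages along the tubule; all are given 5′ to 3′ on the strand of the gene, and capitals mark NRF1 letters. The window of Cox6b2 is chr1:78122621-78122870 (plus strand), that of Cox6b1 chr1:95009853-95010102 (minus strand), that of Cox7b2 chr14:37046831-37047080 (plus strand), that of Cox7b chrX:75148786-75149035 (plus strand), that of Ndufa5 chr4:53971236-53971485 (minus strand) and that of Sdha chr1:30764303-30764552 (plus strand).
Cox6b2: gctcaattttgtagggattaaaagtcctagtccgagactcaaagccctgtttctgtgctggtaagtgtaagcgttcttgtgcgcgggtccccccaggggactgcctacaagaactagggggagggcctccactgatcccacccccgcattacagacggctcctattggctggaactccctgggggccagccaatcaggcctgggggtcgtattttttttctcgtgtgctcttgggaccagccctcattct
Cox6b1: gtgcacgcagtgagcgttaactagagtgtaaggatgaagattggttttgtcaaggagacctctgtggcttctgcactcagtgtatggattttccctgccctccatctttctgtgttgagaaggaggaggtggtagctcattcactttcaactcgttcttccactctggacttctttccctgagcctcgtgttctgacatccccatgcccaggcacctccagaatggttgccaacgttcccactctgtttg
Cox7b2: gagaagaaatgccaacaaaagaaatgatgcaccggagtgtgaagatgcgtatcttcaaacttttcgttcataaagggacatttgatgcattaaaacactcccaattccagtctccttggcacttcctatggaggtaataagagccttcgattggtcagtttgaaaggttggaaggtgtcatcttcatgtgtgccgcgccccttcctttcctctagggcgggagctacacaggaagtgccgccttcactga
Cox7b: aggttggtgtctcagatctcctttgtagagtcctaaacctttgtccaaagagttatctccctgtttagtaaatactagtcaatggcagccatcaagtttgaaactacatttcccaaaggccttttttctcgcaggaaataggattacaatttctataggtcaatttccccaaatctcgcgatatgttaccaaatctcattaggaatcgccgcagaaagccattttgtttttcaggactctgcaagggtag
Ndufa5: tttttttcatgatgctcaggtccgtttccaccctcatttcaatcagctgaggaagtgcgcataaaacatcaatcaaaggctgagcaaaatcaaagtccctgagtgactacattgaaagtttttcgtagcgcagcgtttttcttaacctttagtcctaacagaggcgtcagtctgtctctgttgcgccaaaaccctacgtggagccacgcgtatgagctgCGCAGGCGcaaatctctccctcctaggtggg
Sdha: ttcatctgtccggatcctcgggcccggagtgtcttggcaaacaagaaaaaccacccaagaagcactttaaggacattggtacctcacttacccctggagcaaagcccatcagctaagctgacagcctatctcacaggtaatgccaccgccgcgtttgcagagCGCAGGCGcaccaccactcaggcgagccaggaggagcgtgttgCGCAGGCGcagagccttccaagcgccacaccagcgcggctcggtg
The window of Ndufa5 holds the NRF1 letters once and that of Sdha 2 times.

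Along the seminiferous tubule, most respiratory chain genes stayed within 2-fold over the 10 stage groups, and a few subunits of complexes I, II and V varied strongly. Ndufa5 varied 17.6-fold and stood far from all other members. Of 86 members tested, 17 were stage-regulated, meaning an adjusted p under 0.05 in limma's F-test over the stages and at least 2-fold between the highest and lowest stage mean, beside 32.5% of all probe sets. The F-test alone passed 75 of 86, beside 54.3% of all. The median range between stages was 0.72 on the log2 scale over the members and 0.89 over all probe sets. Stage-regulated were 7 of 29 accessory subunits, 0 of 6 core subunits and 1 of 6 assembly factors of complex I, 1 of 4 subunits of complex II, 0 of 8 genes of complex III, 2 of 16 of complex IV and 6 of 16 of complex V. By F-test alone, 5 of 6 core subunits and 8 of 8 complex III genes passed, so their variation was smaller than 2-fold rather than undetected.

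Ndufa5 had signals of 167, 108, 106, 134 and 173 at stage I and 2275, 2492, 2452, 2510 and 2564 at stage VIIc.d. Its mean was 138 ± 31.6 at stage I, 297 ± 101 at II-III, 656 ± 53.2 at IV-V, 920 ± 106 at VI and 1757 ± 111 at VIIa.b. It was 2459 ± 110 at VIIc.d and 2098 ± 206 at VIII, and then 528 ± 82.9 at IX-XI, 202 ± 60.4 at XII and 137 ± 18.3 at XIII-XIV. No sample of stages VIIa.b to VIII overlapped any sample of the other stages. The F-test gave an adjusted p of 5.27e-32 (limma), and the difference between stages VIIc.d and I was 4.14 on the log2 scale. Between neighbouring stages, Ndufa5 was the only member with a called change, in 4 steps: higher at II-III than at I (log2 difference 1.05), higher at IV-V than at II-III (1.19), lower at IX-XI than at VIII (-1.99) and lower at XII than at IX-XI (-1.40). In these steps the shares called over all probe sets were 2.33%, 1.29%, 2.45% and 0.692% in the same directions, and over all 20 steps and directions they were 0.184% to 2.45%. Among the isolated cells Ndufa5 was highest in round spermatids, and the part of these cells in its course along the tubule was not tested. Atp5mpl ran a similar but shallower course, with 338 ± 66.8 at I and 941 ± 165 at VIIc.d (2.77-fold). Its samples at I spread from 265 to 408, and at VIIc.d from 773 to 1188, without overlap. Ndufab1, the mitochondrial acyl carrier protein that is also a complex I subunit, was also lowest at I (236 ± 64.1) and highest at VIIc.d (519 ± 36.9), and without 1 stage I sample of 133 its range fell below 2-fold, to 0.98 on the log2 scale.

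Sdha and Atp5f1c had a different course, with their lows at IV-V and their highs after the peak of Ndufa5. Sdha had 146, 159, 146 and 115 at stage IV-V and 500, 528, 460, 490 and 411 at stage XII, with no overlap (3.30-fold, limma adjusted p = 4.30e-21). Its mean was 344 ± 65.3 at I, 184 ± 29.7 at II-III, 142 ± 18.5 at IV-V, 200 ± 24.0 at VI and 280 ± 29.4 at VIIa.b. It was 383 ± 34.5 at VIII, 468 ± 49.1 at IX-XI, 478 ± 44.5 at XII and 465 ± 41.8 at XIII-XIV. Sdhb, Sdhc and Sdhd, the other subunits of complex II, varied 1.29-, 1.83- and 1.45-fold and were not stage-regulated by the 2-fold rule. Atp5f1c averaged 759 ± 29.8 at IV-V and 2534 ± 350 at IX-XI (3.30-fold, limma adjusted p = 3.49e-22), and its samples at IX-XI, XII and XIII-XIV, from 1904 to 2850, lay above those of stages II-III to VIIc.d. Ndufa13, an accessory subunit of complex I also known as GRIM-19, averaged 760 ± 45.3 at II-III and 2384 ± 374 at IX-XI (3.09-fold). Ndufc1 averaged 267 ± 34.5 at IV-V and 664 ± 71.3 at IX-XI (2.46-fold). Like Ndufa5, Sdha was higher at VIII than at IV-V, but it stayed high through XIII-XIV, where Ndufa5 was low again.

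**Figure D3:**
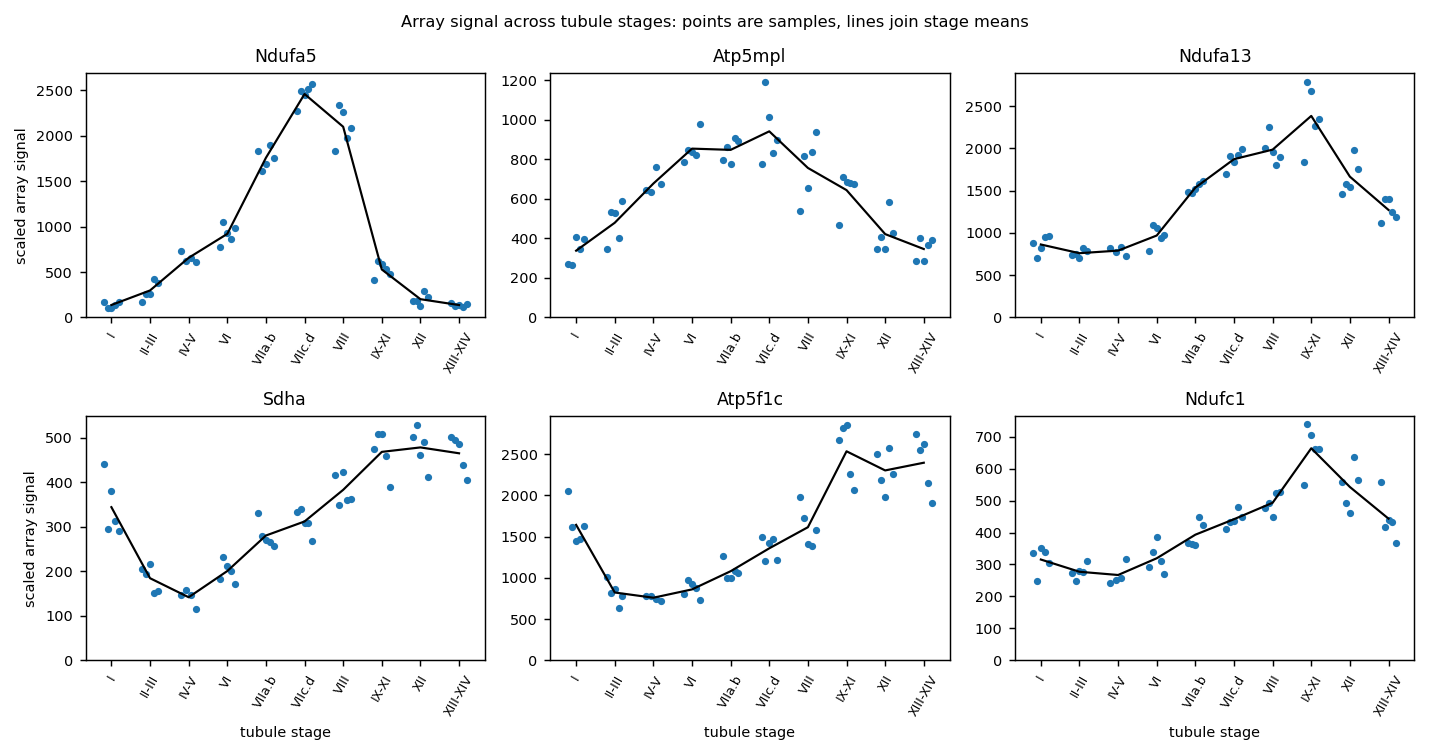
Scaled array signal (linear axis from 0) of 6 stage-regulated genes over the 10 tubule stage groups in order; points are samples and lines join stage means. Ndufa5 peaked at VIIc.d near 2459, whereas Sdha and Atp5f1c were lowest at IV-V and high from IX-XI to XIII-XIV.

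Of the 17 stage-regulated members, 9 (52.9%) peaked at IX-XI, against 12.7% of all stage-regulated probe sets, and 7 were lowest at IV-V. The 9 included 5 of the 6 complex V genes: Atp5f1c, Atp5f1e, Atp5mk, Atp5po and Atp5mc3. With an adjusted p alone and no fold threshold, 36 of 86 members were higher at IX-XI than at VIII and 1 was lower, beside 8.06% and 7.62% of all probe sets, and 28 were lower at XII than at IX-XI, beside 5.05%. These counts were lower when 4 samples were left out. No share over all probe sets is given for that setting, so the fall was not compared with the background. In stage VIIc.d replicates 2 and 3 and stage IX-XI replicates 2 and 3, the GAPDH 3' to 5' ratio was 1.36 to 2.05 and the actin ratio 2.65 to 2.86, against GAPDH ratios of 0.97 to 1.35 and actin ratios of 1.61 to 1.94 in the other samples of these stages. Without these 4 samples, 20 members were higher at IX-XI than at VIII, 4 were lower at XII than at IX-XI, and 13 members were stage-regulated, of which 2 peaked at IX-XI. Of the 17, Atp5f1e, Atp5mc3, Atp5po, Cox7c and Ndufaf5 then fell short of 2-fold. Atp5f1e, the epsilon subunit of complex V, shows it: 2567 and 2409 in the replicates named against 1420, 1398 and 1368 in the other samples of IX-XI. Without IX-XI replicate 2 or without replicate 3 alone, 18 members were lower at XII than at IX-XI. On average over all 87 members, the level relative to each gene's mean over samples was highest at IX-XI, 0.21 ± 0.11 on the log2 scale (SD, n = 5), and lowest in round spermatids, -0.29 ± 0.04 (SD, n = 4). The IX-XI samples ran from 0.06 to 0.34, and replicates 2 and 3, with the high 3' to 5' ratios, were among them. No such mean is given over all probe sets, so these levels were not compared with the background.

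**Figure D4:**
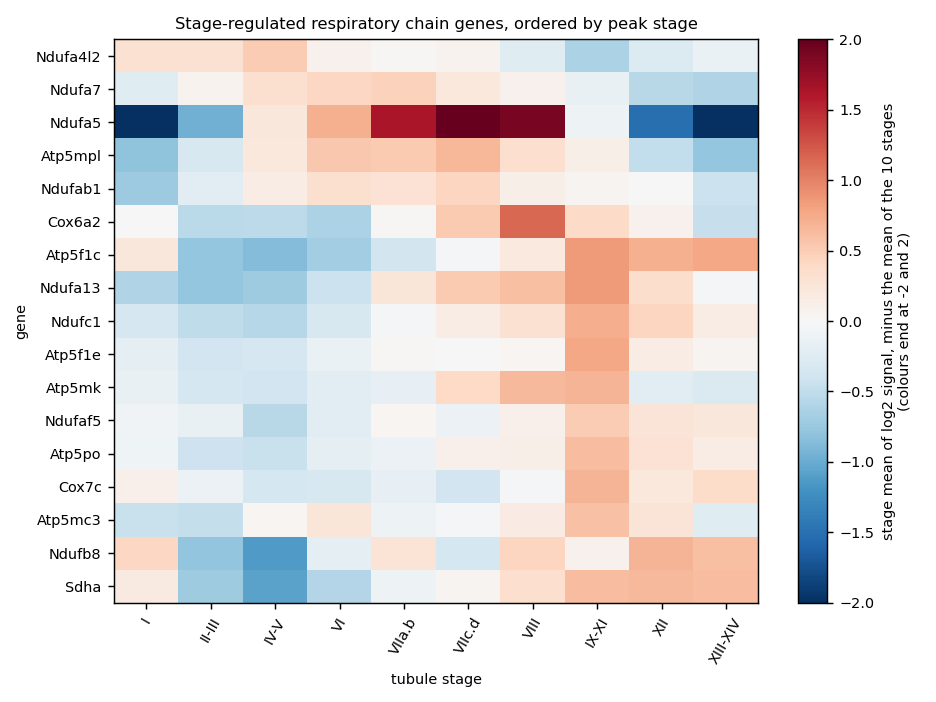
Stage means of log2 signal for the 17 stage-regulated members (rows, ordered by peak stage) over the 10 stage groups (columns), each minus the gene's mean over the stages; colours end at -2 and 2. Ndufa5 spans the whole colour range, and most rows in the lower part are red at IX-XI and blue at IV-V.

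Other stage-regulated members were weaker or noisier. Ndufb8 varied 3.51-fold between IV-V (37.5 ± 22.7) and XII (129 ± 18.8), but single samples at IX-XI ran from 8.67 to 182, on both sides of the table's median of 43.7. Cox6a2, the heart and muscle isoform of a complex IV subunit, varied 3.46-fold between VI (13.1 ± 7.15) and VIII (57.3 ± 20.1), also at low signals. Ndufa4l2 was the member that peaked at IV-V (2.20-fold), and Ndufa7 peaked at VIIa.b (2.09-fold). With each array centred on its median, 14 members were stage-regulated, of which 6 peaked at IX-XI: Ndufa7 (0.97 on the log2 scale, with its peak at VI), Atp5po (0.99) and Ndufaf5 (0.998) fell just short of 2-fold. With quantile normalization 22 were stage-regulated, of which 10 peaked at IX-XI. The isoforms of the testis varied less than 2-fold over the stages: Cox6b2 1.29-fold (limma F-test adjusted p = 0.0371) and Cox7b2 1.49-fold (0.000251), beside Cox6b1 at 1.68-fold (5.00e-05) and Cox7b at 1.46-fold (0.154). The X-linked Ndufa1 and Ndufb11 varied 1.34- and 1.55-fold. The members that varied least were Ndufb2, Ndufv2 and Atp5me, at 1.14-, 1.14- and 1.13-fold, and none of the 3 passed the F-test (limma adjusted p = 0.648, 0.0825 and 0.664). For Ndufv2, stage means lay between 1149 at IV-V and 1305 at I.

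Of the 3 members higher in round spermatids than in pachytene spermatocytes, 2 were stage-regulated, Ndufa5 and Atp5mpl, and both peaked at VIIc.d. Of the 9 that were lower, 6 were stage-regulated. Over all probe sets called in the same direction and tested along the tubule, 84.8% of the higher and 59.1% of the lower ones were stage-regulated, so the members' shares lie near the background. Sdha and Ndufb8 peaked at XII, and Ndufc1, Atp5mc3, Atp5f1c and Cox7c at IX-XI, but Atp5mc3 and Cox7c were not stage-regulated without the 4 samples of high 3' to 5' ratio. Stages from IX on hold no round spermatids, whereas pachytene spermatocytes are found in most stages. The part of either cell type in these stage courses was not tested.

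Whole testis was close to the mean of the tubule stages. No member was called higher or lower of 86 tested, beside 2.31% higher and 1.2% lower over all probe sets. With limma's adjusted p alone, 28 members were higher and 8 lower, beside 15.2% and 17.4% of all probe sets. By limma's unadjusted p under 0.05 alone the count was 49. No share over all probe sets is given for that threshold, so this count was not compared with the background. Sdha had 352, 425, 482, 497 and 511 in whole testis, against a lowest, median and highest signal of 115, 331 and 528 in the 49 tubule samples. All whole testis samples lay above the tubule median and none above the tubule maximum (log2 difference 0.57, standard error 0.08, limma adjusted p = 3.81e-07). Cox6b1 averaged 260 ± 43.8 in whole testis and 176 ± 41.4 in tubules (log2 difference 0.57), Cox7b 108 ± 27.4 in whole testis and 70.9 ± 14.8 in tubules (0.56), and Cox8a 440 ± 90.6 in whole testis and 309 ± 70.4 in tubules (0.51). For Atp5me, a small subunit of complex V, the 2 groups did not overlap, with a log2 difference of -0.52, short of 2-fold; it is named here after its values were seen. Leydig cell markers, 6 of 7 of which were higher in whole testis, summed to 2121 to 2672 in whole testis, against 198 to 429 in tubules, and their part in these differences was not tested.

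Genes that feed or serve the chain were described as lists, to be read against the shares over all probe sets given above: 18.5% higher and 28.6% lower in pachytene spermatocytes, 8.9% higher and 13.1% lower in round spermatids, and 32.5% stage-regulated. Of 17 genes of the TCA cycle and pyruvate entry, 5 were higher and 4 lower in pachytene spermatocytes than in the early cells, 1 was higher and 5 lower in round spermatids than in pachytene spermatocytes, and 6 were stage-regulated. Pdhb, a subunit of pyruvate dehydrogenase, averaged 358 ± 54.3 in round spermatids and 1561 ± 114 in pachytene spermatocytes (SD, n = 4 each; log2 difference -2.12), and Mpc1, of the mitochondrial pyruvate carrier, 102 ± 10.7 in round spermatids and 378 ± 25 in pachytene spermatocytes (-1.84). All 3 germ cell glycolytic isozymes tested were higher in pachytene spermatocytes than in the early cells. Pgam2, a phosphoglycerate mutase, averaged 700 ± 122 in pachytene spermatocytes and 1.9 ± 0.4 in the early cells, a level too low to fix the size of the fold (log2 difference 6.63), and Gapdhs, the sperm glyceraldehyde phosphate dehydrogenase, 1029 ± 108 in pachytene spermatocytes and 82.8 ± 16.1 in the early cells (3.57). Of 8 carriers and porins, 5 were higher in Sertoli cells, beside 24.1% of all probe sets, and 5 lower in pachytene spermatocytes. Slc25a4, an ADP/ATP carrier, averaged 1607 ± 145 in Sertoli cells, 34.3 ± 13.5 in round spermatids, 48.4 ± 10.4 in pachytene cells and 951 ± 6.0 in the early germ cells (log2 difference 3.70 for Sertoli cells against the germ cells). Ldhb, a lactate dehydrogenase subunit, was also higher in Sertoli cells (3.50), whereas Hk1, a hexokinase (-2.44), and Ppargc1a, a coactivator of mitochondrial biogenesis (-2.67), were lower. Of 13 somatic glycolytic genes tested, 6 were higher in Sertoli cells and 3 lower. Of 13 genes of mitochondrial biogenesis and DNA maintenance, 3 were higher and only Ppargc1a was lower, with a median log2 difference of 0.41. Over all probe sets 24.1% were higher and 29.7% lower.

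Among 22 tested assembly factors of complexes II to V, 5 were higher and 5 lower in pachytene spermatocytes, 3 were higher and 4 lower in round spermatids against pachytene spermatocytes, and 8 were stage-regulated, to be read against the same shares. Coa5, a complex IV assembly factor, averaged 455 ± 94.5 in round spermatids and 53.8 ± 6.5 in pachytene spermatocytes (log2 difference 2.95). Sdhaf3, an assembly factor of complex II, varied 7.06-fold over the stages, with its peak at VI and its low at XII, which differs from the course of Sdha. Nubpl, an assembly factor of complex I outside the naming rule, varied 8.24-fold between VI and XIII-XIV. Lyrm7, an assembly factor of complex III, was higher in whole testis than in tubules (1.61), and Ssbp1, which binds single-stranded mitochondrial DNA, was lower (-1.04). All 11 X-linked housekeeping genes tested were lower in pachytene spermatocytes than in the early cells. They included Fmr1 (-4.91) and Hsd17b10, a mitochondrial dehydrogenase (-4.82), and the median of the list was -3.36. Timm17b, of the inner membrane translocase, was higher in round spermatids than in pachytene spermatocytes (2.54), at 86.8 ± 21.2 in round spermatids and 10.5 ± 2.1 in pachytene spermatocytes. The differences named for these genes were called by limma with adjusted p from 7.74e-16 to 0.00654.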

How the data were processed

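Total RNA of 69 rat samples was measured on Affymetrix arrays, per the labels from 6 µg of RNA each. The authors deposited 1 linear signal intensity per probe set and array, made with MAS5, per the submitters' processing notes; its version and scaling target were not stated there, and the values show a mean of 100 in every array after 2% of probe sets was trimmed at each end. No detection calls were used, so a low signal was not shown to exceed background, and precision is limited by the 3 to 5 arrays in a group. All table columns were mapped to samples by title, and 0 were left unused. Of 31042 probe sets after removal of 57 controls, 20826 carried exactly 1 symbol in the platform annotation, 436 carried several and 9780 were not named.

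A constant of 5.12, which is the 10th percentile of all signals, was added before taking log2, and models were fitted with limma 3.58.1 (eBayes with trend; R 4.3.3). Probe sets entered a fit if 3 or more of its samples had a signal above the overall median of 43.7. The stage fit held 49 samples, the fit of isolated cells 15, and that of whole testis the tubules as well. Germ cells entered as the mean of their 3 groups, and tubules as the mean of the stage means. Benjamini-Hochberg adjustment ran over all probe sets of a contrast, and fold changes on this scale understate those of weak signals. Isoform ratios were tested by exact permutation over samples (scipy 1.17.1) and adjusted over 9 tests. The fits were tested on simulated data. The main fits did not pair samples by replicate number. Correlations of deviations from group means had a median of 0.05 over 216 same-numbered tubule pairs and -0.01 over 864 others. For isolated cells the medians were 0.02 over 21 same-numbered pairs and -0.008 over 63 others. Of the same-numbered pairs, 41 of tubules and 4 of isolated cells exceeded 0.1. Whether same-numbered samples shared rats was not tested.

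Named members were the isoform pairs, the X-linked members, all subunits of complex II, the 5 called with the largest change each way per comparison (10 over stages), the 3 with the smallest fold over stages, and the 2 listed genes with the largest change each way; others are named as completing a count. The members, lists and rules were chosen with earlier results of these data known. Alternatives were other scalings, constants, filters, fold thresholds, variance models, a replicate block, and omission of single samples or of samples with high 3' to 5' control ratios. The samples omitted for these ratios were replicates 2 and 3 of stages VIIc.d and IX-XI, and early cells replicate 3. Tubule samples that were kept included stage VIII replicates 4 and 5, with GAPDH ratios of 1.62 and 1.53 and actin ratios of 2.08 and 2.12. All other isolated cell and whole testis samples were kept, among them the round spermatids with GAPDH ratios of 1.75 to 2.44 and actin ratios of 1.77 to 1.99.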

Additional observations from a re-analysis of the deposited data

Results flagged for a closer look

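In groups of 4 to 10 samples, 19 of 310 groups examined (6.13%, where chance gives about 5%) held a sample far from the others. Among signals of isolated cells, Atp5me was 389 in pachytene spermatocytes replicate 4, against 511 to 528 in the others, Cox4i1 was 2047 in Sertoli cells replicate 1, against 2410 to 2442, and Ndufb8 was 113 in pachytene spermatocytes replicate 1, against 145 to 150. Pachytene spermatocytes replicate 4 was also high for Sdha (846, against 591 to 624) and for Sdhb (381, against 341 to 346). Round spermatids replicate 4 stood apart for Ndufa12 (2746, against 3028 to 3082), for Ndufv2 (1235, against 1153 to 1158) and for Cox6a2 (31.7, against 8.4 to 9.5). Ndufb11 was 450 in round spermatids replicate 2, against 324 to 337, and Cox6a2 was 10.4 in Sertoli cells replicate 3, against 1.3 to 2.0.

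Whole testis replicate 4 stood apart for 3 tissue isoforms of complex IV: Cox6a2 was 31.3, against 6.0 to 10, Cox7a1 was 53.2, against 9.9 to 12.4, and Cox4i2 was 28.6, against 48.4 to 54.5. Among tubules, Cox4i1 was 4161 in stage I replicate 2, against 3441 to 3549, and Ndufb2 was 717 in stage VI replicate 1, against 881 to 956. Mean levels of whole complexes, relative to each gene's mean on the log2 scale, gave 4 more. Complex I assembly factors were at 0.019 in pachytene spermatocytes replicate 2, against 0.13 to 0.14. Complex I core subunits were at -0.18 in stage IX-XI replicate 1, against 0.03 to 0.04, complex II was at 0.43 in stage XIII-XIV replicate 1, against 0.03 to 0.14, and complex IV was at -0.047 in whole testis replicate 2, against 0.14 to 0.18.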

How the results depend on the processing

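With a 1.5-fold threshold and with none, 50 and 75 members were stage-regulated, and 15 and 125 changes between adjacent stages were called. In the same order, 27 and 39 members were higher and 14 and 24 lower in Sertoli cells, 28 and 39 were higher in pachytene spermatocytes, 5 and 12 were higher and 20 and 36 lower in round spermatids, and 1 and 8 were lower in whole testis. With no threshold, 21 were lower in pachytene spermatocytes and 28 higher in whole testis. Over all probe sets, the shares with no threshold were 37.8% higher and 44.8% lower in Sertoli cells, and 28.1% and 39.1% in pachytene spermatocytes. They were 16.9% and 27.2% in round spermatids, 15.2% and 17.4% in whole testis, and 54.3% over the stages. Each adjacent step and direction held 1.3% to 8.06%. No share is given for the 1.5-fold threshold, so those counts were not compared with the background. With arrays centred on their median, 28 members were higher in pachytene spermatocytes, beside 26.6% of all probe sets, and the median of all probe sets was then 0.27. Quantile normalization turned the difference in Cox4i2 over Cox4i1 between pachytene spermatocytes and the early cells to 0.30, and the cause was not tested. With limma in place of the exact test, the difference in Cox6b2 over Cox6b1 passed for Sertoli cells (-3.66, with germ cell groups weighted equally), pachytene spermatocytes (5.46) and round spermatids (0.86), and that in Cox7b2 over Cox7b for Sertoli cells (-3.47) and pachytene spermatocytes (6.88).

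Leaving out single samples gave 14 to 19 stage-regulated members and 3 to 6 adjacent changes, with 10 to 12 higher and 6 to 7 lower in Sertoli cells, 9 to 11 higher and 12 to 13 lower in pachytene spermatocytes, and 3 higher and 8 to 11 lower in round spermatids. In whole testis it gave 0 higher and 0 to 1 lower, the 1 being Cox6a2 at -1.06 without whole testis replicate 4; tubules were left out there by replicate number over all stages at once. The main fits held no replicate block. With such a block, 17 members were stage-regulated, and 10 were higher and 7 lower in Sertoli cells. In the same order there were 10 and 13 in pachytene spermatocytes, 3 and 9 in round spermatids, and none in whole testis. The omission of samples with high 3' to 5' control ratios was planned for the counts of calls; its use for the counts by adjusted p alone at stages IX-XI and XII was chosen after seeing the data. Those counts at XII were 15 with centring and 18 with array weights, against 28. Low signal limits Cox7b, Cox6a2, Ndufa4l2 and Ndufb8, for which no detection call is at hand.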
